A study of Mus musculus with 2 samples.

Results

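The cells described here were those that the authors' cell table of a mouse embryo single-cell RNA-seq experiment annotated as Foregut. They were found by that annotation alone, by joining each barcode of the table to the 4 deposited count matrices, and they numbered 225 of 5678 annotated cells. Each matrix held the cells of 1 suspension of whole embryos at embryonic day 11.5. F0_8 held 1 founder embryo, F0_9 another, and F1_1 an embryo of the F1 generation. F1_mix held cells of 2 F1 embryos, combined on purpose to imitate a mosaic. All 4 suspensions carried an EGFP cassette linked to DNA barcodes, driven by the ubiquitous CAG promoter and inserted by the piggyBac transposase, and no suspension was free of the transgene. The suspensions were tagged with oligonucleotides, pooled and sequenced as 1 library. The spread between them is thus a spread between embryos or embryo mixtures, together with their dissociation and tagging, and not between library preparations. Generation is compared over 2 suspensions a group, and each founder is 1 embryo.

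The foregut is the anterior part of the gut tube, an epithelium that gives rise to the oesophagus, trachea, lung, thyroid, stomach, liver and pancreas. Its cells are epithelial, carry E-cadherin and keratins, and are specified by endodermal transcription factors such as those of the Foxa and Gata families and Sox17. Several genes used to mark it are also used elsewhere: Nkx2-1 in the ventral forebrain, Foxa2 and Shh in the floor plate of the neural tube, and Sox21 in neural progenitors. Neural progenitors line the neural tube, divide, express SoxB1 factors and the intermediate filament Nestin, and are held back from differentiation by Notch signalling.

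The annotated Foregut cells made up 56 of 1599 cells in F0_8, 35 of 1318 in F0_9, 72 of 1310 in F1_1 and 62 of 1451 in F1_mix. As shares these were 3.50% (95% exact binomial interval 2.66 to 4.52), 2.66% (1.86 to 3.67), 5.50% (4.32 to 6.87) and 4.27% (3.29 to 5.44). Both F1 shares lay above both founder shares, but an exact two-sided permutation test over the 4 suspensions gave p = 0.333, the smallest p that 2 against 2 allows. No cell barcode occurred in more than 1 suspension (0 shared). Genes of the Y chromosome were higher in F0_8 and F1_mix than in F0_9 and F1_1 in both cell sets, with a wider gap in Neuronal Progenitor cells. They stood at 3.13, 0.534, 0.203 and 2.22 UMIs per 10000 UMIs outside mitochondrial genes in Foregut cells of F0_8, F0_9, F1_1 and F1_mix, and at 2.48, 0.0114, 0.0134 and 0.981 in Neuronal Progenitor cells. Intervals here and below cover counting error only.

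These cells were shallow and rich in mitochondrial transcripts. They held a median of 1241 gene UMIs (unique molecular identifiers, each standing for 1 captured RNA molecule; range 544 to 13556) and 757 detected genes, against 13388 UMIs and 4395 genes in the cells annotated Neuronal Progenitor. The median share of UMIs from genes of the mitochondrial genome was 27.2% and 27.7% in founders F0_8 and F0_9 and 19.5% and 22.5% in F1_1 and F1_mix, against 1.86% in Neuronal Progenitor cells. The mitochondrial percent in the deposited cell table was lower, with a median of 1.38% in Foregut cells, and all 5678 cells were under the limit of 5% that the study's methods state. In all 5678 cells it lay within 0.2 percentage points of the mitochondrial share of gene and oligonucleotide UMIs together. Over gene UMIs alone, 5 of the 225 Foregut cells and 4268 of all cells were below 5%. The tagging oligonucleotides were not depleted, with a median of 20117 UMIs a cell against 20408 in Neuronal Progenitor cells. Similar depths were found under the annotations Hepatocyte (543 cells, median 1674 UMIs), Midgut (333 cells, 998 UMIs) and Endodermal Progenitor (268 cells, 721.5 UMIs). They are called the other shallow types below, and the remaining 12 annotations the deep types.

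**Figure D1:**
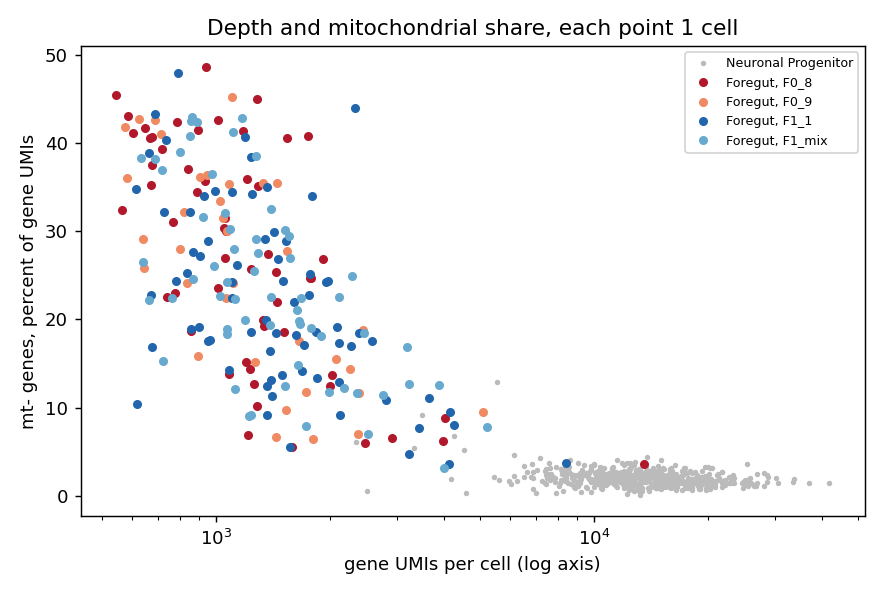
Gene UMIs per cell (log axis) against the percent of them from mitochondrial genes, 1 point a cell, for Foregut cells by suspension and for Neuronal Progenitor cells in grey. The Foregut cells have a median of 1241 UMIs and 24.1% mitochondrial UMIs, and the 2 sets of cells barely overlap.

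Levels below are UMIs per 10000 UMIs outside mitochondrial genes, summed over cells, and the 225 cells held 279832 such UMIs. Because the annotation came from clustering these same genes, comparisons with other annotations are given as descriptions, without a test.

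The genes that mark the foregut were at or near 0. Nkx2-1 (chromosome 12, 56531935 to 56536908, GRCm38), a factor of the lung and thyroid primordia, had 0, 1, 0 and 2 UMIs in F0_8, F0_9, F1_1 and F1_mix. Foxa2 (chromosome 2, 148042877 to 148046969), the pioneer factor of endoderm and floor plate, had 0 UMIs in every suspension, which allows a level of up to 0.132. Shh (chromosome 5, 28456840 to 28467101), the secreted hedgehog ligand, had 0, 1, 3 and 2 UMIs. Sox21 (chromosome 14, 118233233 to 118237030) held most of the signal of the set, with 0, 0, 9 and 5 UMIs in 13 cells.

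Together the 4 markers reached 0.82 UMIs per 10000 (95% exact Poisson interval 0.521 to 1.23), the fourth highest level among the 16 annotations. The set was higher in Ependymal Cell (2.64), Epithelial Cell and Neuronal Progenitor (1.30), and it was 0 in F0_8. In the other shallow types it was lower, at 0.164 (0.0534 to 0.384) in Midgut, 0.0610 in Hepatocyte and 0.183 in Endodermal Progenitor. It was found in 21 of the 225 cells. Those 21 cells held neural progenitor genes at 13.3 UMIs per 10000 (10.3 to 17.0), against 12.4 (10.99 to 13.9) in the 204 cells without a marker UMI, and they held 1 UMI of the gut endoderm genes.

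General endoderm and foregut organ genes were almost absent. Of 12 gut endoderm genes, 10 had no UMI, among them Foxa1, Foxa3, Sox17, Hnf4a, Gata4, Gata6 and the keratins Krt8 and Krt18. The other two, the epithelial adhesion molecules Epcam and Cdh1 (E-cadherin), had 1 UMI each. The list stood at 0.0715 UMIs per 10000 (0.00866 to 0.258), fourteenth of 16 annotations, against 20.02 in Epithelial Cell. None of 7 foregut organ genes (Hhex, Pax8, Pax9, Foxe1, Sftpc, Pdx1, Ptf1a) and none of 5 liver genes (Alb, Afp, Apoa1, Ttr, Serpina1a) had a UMI, 0 of 279832, and each list could have stood at up to 0.132. Of 4 hindgut and intestinal genes, Vil1 had 3 UMIs and Cdx1, Cdx2 and Fabp1 had 0.

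Free RNA in the droplets held more of the gut endoderm, foregut organ and liver genes than the cells did, and less of the 4 markers and of the hindgut genes. In 1435345 near-empty barcodes, those with 1 to 100 gene UMIs and in no suspension, the gut endoderm list stood at 1.36, the foregut organ list at 0.325 and the liver list at 0.936 UMIs per 10000. The 4 markers stood there at 0.266, and the hindgut list at 0.0242 against 0.107 in the Foregut cells, where its 3 UMIs made it the highest of 16 annotations. Globin RNA, which comes from red cells, stood at 218.2 in those barcodes and at 8.93 in the Foregut cells. If all of that globin were free RNA, free RNA would make up 4.09% of their UMIs.

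Each of the 8 neural progenitor genes was detected, and 144 of the 225 cells held a UMI of any of them. The list stood at 9.68, 11.5, 13.5 and 14.4 UMIs per 10000 in F0_8, F0_9, F1_1 and F1_mix, and at 12.5 pooled (11.3 to 13.9). That was the second highest level of 16 annotations, below Neuronal Progenitor (30.7), and each suspension's value lay above the pooled levels of Midgut (3.19), Hepatocyte (1.49) and Endodermal Progenitor (3.93). Free RNA held the list at 5.53.

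Within the list, members did not stand at the same fraction of their level in Neuronal Progenitor cells. Sox2, the SoxB1 factor that keeps progenitors undifferentiated, had 10, 7, 16 and 18 UMIs in the 4 suspensions, a pooled level of 1.82 against 4.28 in Neuronal Progenitor. Nes, which encodes Nestin, had 9, 6, 41 and 36 UMIs, a level of 3.29 against 3.82. Notch1, the receptor, had 13, 10, 33 and 23 UMIs and stood at 2.82 against 1.72. Pax6, a factor of the forebrain, eye and intermediate spinal cord, had 19, 5, 6 and 6 UMIs and stood at 1.29 against 0.825. F0_8 held most of these UMIs, and without it Pax6 stood at 0.799. Fabp7, a fatty acid binding protein of radial glia encoded by a short transcript, was the member farthest below, with 11, 10, 16 and 10 UMIs and a level of 1.68 against 14.7. Sox1, Sox3 and the Notch target Hes5 had 12, 11 and 23 UMIs.

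A second group, radial glia and neuroepithelial genes, was added after these data had been seen. It stood at 32.8 UMIs per 10000 (30.7 to 35.0), above every other annotation, with 15.5 in Neuronal Progenitor and 14.4 in Midgut, and it was found in 88.9% of the cells. Rfx4, a neural tube transcription factor, stood at 4.62, 7.47, 9.44 and 5.22 in the 4 suspensions, against 2.79 in Neuronal Progenitor and 0.559 in Midgut. Msi1, the RNA-binding protein Musashi, stood at 5.57 against 2.06 in Neuronal Progenitor, and Cdh2, the N-cadherin of neuroepithelium, at 11.5 against 4.30. Cdh2 had 323 UMIs, where Cdh1 had 1. Genes over 100 kb, Rfx4 among them, were in general higher in Foregut than in Neuronal Progenitor cells, with a median log2 ratio of 1.56. The part of gene length in the level of this list was not tested.

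**Figure D2:**
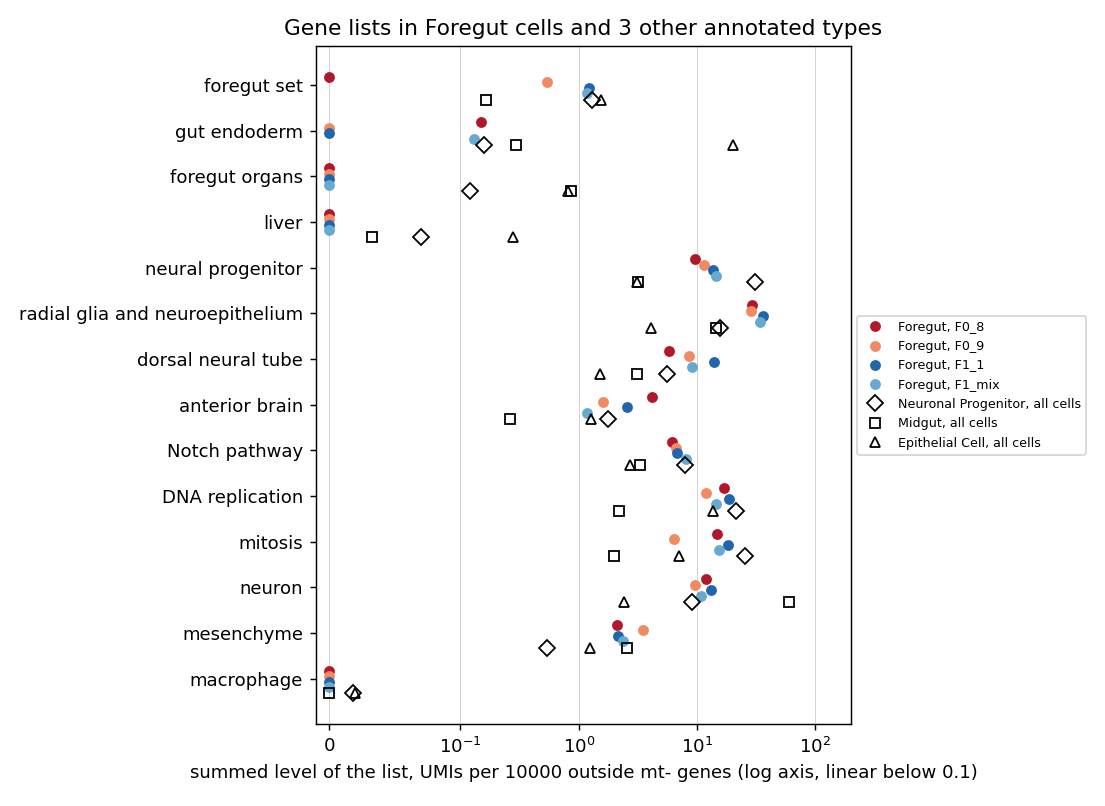
Summed level of 14 gene lists (UMIs per 10000 outside mitochondrial genes, log axis that is linear below 0.1) in Foregut cells of each suspension and in all cells of 3 other annotations. The neural progenitor list lies between 9.68 and 14.4 in the Foregut cells, and the foregut organ, liver and macrophage lists are at 0 in all 4 suspensions.

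Shares of cells were compared after drawing 500 UMIs outside mitochondrial genes from each cell, which left out 32 of the 225 Foregut cells and none of the Neuronal Progenitor cells. Rfx4 was then found in 30.1% of Foregut cells (23.7 to 37.1; 46.2% before drawing), 13.2% of Neuronal Progenitor cells and 3.08% of Midgut cells. Sox2 was found in 6.22% (3.25 to 10.6; 16.9% before drawing), 16.9% and 0% (0 of 260 Midgut cells, up to 1.41%). A UMI of any neural progenitor gene was found in 40.4% of Foregut, 69.3% of Neuronal Progenitor, 12.3% of Midgut and 2.82% of Gut Mesenchyme/Amniotic Mesoderm cells (47.2% before drawing). That mesodermal type does not lack the whole list, since Nes was found in 30.3% of its cells before drawing. Sox2 was found there in 0.148% and Rfx4 in 0.445% of 674 cells after drawing, from a median of 13007.5 UMIs outside mitochondrial genes against 933 in Foregut cells. Foxa2 and Epcam were found in 0 of 193 Foregut cells (up to 1.89%), and Epcam in 34.4% of Epithelial Cell.

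Regional genes of several levels of the neural axis were detected. The 9 forebrain and hypothalamus genes stood at 2.68 UMIs per 10000 (2.11 to 3.36), second to Ependymal Cell (4.30) and beside 2.19 in Neuronal Progenitor, 0.691 in Midgut and 1.11 in free RNA. In F0_8, F0_9, F1_1 and F1_mix they stood at 4.32, 2.13, 2.94 and 1.17, so F0_9 and F1_mix lay below the pooled Neuronal Progenitor level. The 7 floor plate and midbrain genes stood at 2.93 pooled (2.33 to 3.64), also second to Ependymal Cell (5.87) and above Neuronal Progenitor (1.39) and free RNA (0.998). Of their 82 UMIs, 53 came from Spon1, which encodes the secreted floor plate protein F-spondin, and the list stood at 2.17 in Midgut and 2.503 in Hepatocyte. Anterior brain genes (Otx2, Six3, Six6, Rax and Emx2, added after seeing the data) were found in 32 cells and Hox genes, which mark the hindbrain and spinal cord as well as trunk mesoderm, in 79. Both were found in 7 cells and neither in 121. The Hox genes stood at 8.51 UMIs per 10000 (7.46 to 9.66) against 8.46 in Neuronal Progenitor, with Hoxb3 (53 UMIs in 30 cells) and Hoxb6 (37 UMIs in 21 cells) contributing most. Across F0_8, F0_9, F1_1 and F1_mix their level was 3.28, 8.27, 9.94 and 11.4, while the anterior brain genes stood at 4.17, 1.60, 2.54 and 1.17. F0_8 was thus the suspension with the lowest Hox and the highest anterior brain level. Its deepest cell, with 13556 gene UMIs, held 17 of its anterior brain UMIs and no Hox UMI, and without that cell F0_8 stood at 2.03 for anterior brain, below F1_1, and at 4.07 for Hox genes, still the lowest.

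Otx2, a forebrain and midbrain factor, had 3, 1, 22 and 5 UMIs, and Six3, a factor of the most anterior forebrain, had 9, 1, 1 and 2. Single suspensions therefore supplied most of the UMIs of each gene, F1_1 for Otx2, which stood at 1.11 in all and at 0.496 without F1_1, and F0_8 for Six3, whose deepest cell held 7 of the 13 UMIs. Pax3, a factor of the dorsal neural tube, the neural crest and muscle precursors, had 28, 15, 94 and 41 UMIs and stood at 6.36 UMIs per 10000 against 2.88 in Neuronal Progenitor and 2.34 in Midgut. Pax3 and its relative Pax7, which marks dorsal neural tube and muscle precursors alike (33 UMIs), supplied all but 2 of the 213 UMIs of the 8 skeletal muscle genes. That list stood at 4.47, 5.60, 11.1 and 6.92 in the 4 suspensions, and its pooled 7.61 was the highest of 16 annotations, above Myoblast/Cardiomyocyte (5.68). Its other 2 UMIs were of Actc1, and Myf5, Myod1, Myog, Des and Myh3 had 0. The neural crest and glia list had 2 UMIs. Ventral neural tube genes were found in 15 cells, against 98 for the dorsal ones.

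Cell cycle and Notch genes were also detected. DNA replication genes (12 of 12 detected) stood at 16.2 UMIs per 10000 (14.8 to 17.8), against 21.3 in Neuronal Progenitor and 2.17 in Midgut. Mitosis genes stood at 15.01 (13.6 to 16.5), against 25.5 and 1.97, with 162 UMIs of Top2a, the DNA topoisomerase of dividing cells, and 107 of Mki67, the proliferation marker. F0_9 was lowest for mitosis genes, at 6.40 where the other 3 suspensions lay between 14.7 and 18.2. Notch pathway genes stood at 6.93 against 7.95 in Neuronal Progenitor, and the proneural genes, which drive exit to neurons, at 0.572 against 3.50.

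Neuronal genes stood at 11.7 (10.5 to 13.1), above Neuronal Progenitor (8.98) and below free RNA (21.2), Midgut (59.4) and Neuroectoderm/Glia (112.7). The 9 mesenchyme genes stood at 2.36, against 27.1 in Hepatocyte, 39.8 in Chondrocyte and 9.24 in free RNA. The 5 cartilage genes stood at 3.002 (2.61 to 3.74 across suspensions), against 7.07 in Chondrocyte and 3.27 in free RNA, with 52 UMIs of the collagen gene Col2a1, 20 of Sox9 and 12 of Col9a1, 6 of these in 1 cell. The 5 macrophage genes stood at 0, and the 5 endothelial genes at 0.143 with Cdh5 and Tek at 0. Long neuronal adhesion genes stood at 68.2, against 26.9 in Neuronal Progenitor and 292.1 in Midgut. Immediate early and heat shock genes stood at 3.54 (3.29 in Neuronal Progenitor) and p53 targets at 2.32 (3.17). Erythroid genes stood at 21.3 in F0_8 and at 4.47 to 5.87 in the other 3 suspensions. Their part in the F0_8 values was not tested.

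Outside mitochondrial genes, 8 of which had more UMIs than any other gene, the genes with the most UMIs were long genes of neural and general embryonic use. Npas3, a transcription factor of the developing brain, led with 1145 UMIs and stood at 27.7, 42.7, 49.3 and 40.8 UMIs per 10000 in F0_8, F0_9, F1_1 and F1_mix. Its pooled level of 40.9 compared with 12.3 in Neuronal Progenitor, 12.2 in Midgut and 6.75 in Hepatocyte. Tenm3, Msi2, Gpc6 and the netrin receptor Dcc followed with 923, 909, 795 and 792 UMIs. Of the 15 genes with the most UMIs, Ptma was the one short gene, at 18.5 against 65.8 in Neuronal Progenitor.

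Transcript composition by gene length set these cells apart from Neuronal Progenitor cells. Genes over 100 kb held 39.4% of their UMIs (37.5% to 40.1% across the suspensions) against 13.6%, and genes of 10 kb or less 13.6% against 44.1%. The median log2 ratio of Foregut to Neuronal Progenitor levels was 1.56 over 1870 genes above 100 kb, 0.53 over 6738 genes of 10 to 100 kb and fell to -1.17 over 2441 genes of 10 kb or less. Ribosomal protein genes held 4.08% of UMIs against 16.1%. The other shallow types had the same leaning, with 41.4% of UMIs from genes over 100 kb in Hepatocyte, 48.5% in Midgut and 31.8% in Endodermal Progenitor.

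Against the mean of the other shallow types, which share that leaning, genes were ranked among the 2518 with at least 30 UMIs in Foregut cells. That limit leaves out genes nearly absent from these cells, so the numbers of higher and lower genes are not compared. Ttyh1, a membrane protein of neural stem cells, stood at 1.25 UMIs per 10000 against a mean of 0.0516, a ratio of 24.2, and Otx2, most of it from F1_1, at 1.11 against 0.0508, a ratio of 21.8. Fgfr3, a growth factor receptor of ventricular zone progenitors, had a ratio of 9.33, Rfx4 8.77 and Ptprz1, a phosphatase of radial glia, 7.95. Adgrv1 stood at 17.5 against 2.54, a ratio of 6.90, and in 12.2 to 21.5 across suspensions. The 15 leading genes also held genes of wider use, among them Ostm1, a lysosomal membrane protein (1.18 against 0.125), Gpc4, a glypican (3.07 against 0.423), Shroom3, an actin regulator of epithelial folding (6.004 against 0.873), and the Wnt ligand Wnt7b. The rest were Ildr2, Rorb, Cdh20, Spata13 and Dtx4.

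Among the same 2518 genes, farthest below the other shallow types were Ebf1 (2.22 against 17.8, 8.05 times lower), Nrxn3 (4.57, 6.11 times lower, and 2.77 without F0_8), Ebf2, Tshz2 and Hbb-y. Ebf1 and Ebf2 are factors of differentiating neurons and of mesenchyme, and Nrxn3 is a presynaptic adhesion molecule. Against the mean of the 12 deep types the leading genes were Taco1 (7.61 against 0.155), Cdh20, Sema5b, Ildr2 and Plekha7, with Fgfr3, Nckap5, Adgrv1 and Rfx4 also among the first 15. Taco1, a mitochondrial translation factor, was also above the deep types in Midgut (4.83), Hepatocyte (3.83) and Endodermal Progenitor, where its 16.4 exceeded the Foregut level.

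**Figure D3:**
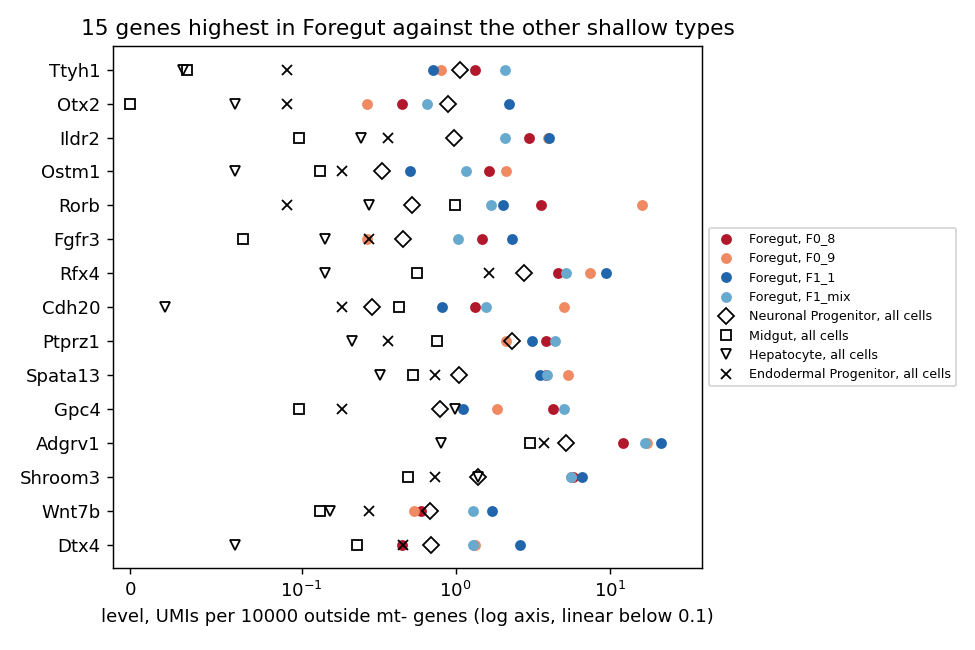
Levels (UMIs per 10000 outside mitochondrial genes, log axis that is linear below 0.1) of the 15 genes with the highest ratio in Foregut cells to the other shallow types, by suspension, beside 4 other annotations. Rfx4 lies between 4.62 and 9.44 in the Foregut cells and at 2.79 in Neuronal Progenitor.

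The profile as a whole was compared with each deep type by correlating log2 levels over the 2000 most variable genes, after subtracting each gene's average across the 12 deep types. The points are genes, which are not independent replicates. For each suspension the deep profiles were taken from the other 3 suspensions. Neuronal Progenitor gave r = 0.49 and 0.48 in the founders F0_8 and F0_9 and 0.58 in both F1_1 and F1_mix. CNS Neuron was next, at 0.28, 0.32, 0.32 and 0.32, and Epithelial Cell, the type with the most endoderm genes, lay between 0.01 and 0.06. Neuronal Progenitor was first in all 4. Without genes over 100 kb its pooled value was 0.55 and CNS Neuron's 0.27. The endodermal annotations Midgut, Hepatocyte and Endodermal Progenitor were shallow and not among the types correlated with.

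The order did change with the pseudocount: with 1 UMI per 10000 added in place of 0.1, Neuronal Progenitor (0.35) came second to Neuroectoderm/Glia (0.36). The same comparison put Midgut nearest to Neuroectoderm/Glia (r = 0.77) and Hepatocyte nearest to Gut Mesenchyme/Amniotic Mesoderm (0.65). Endodermal Progenitor was weakly like any deep type, with its highest r, 0.16, also to Neuroectoderm/Glia. The free RNA had r = 0.11 with Neuronal Progenitor and 0.36 with CNS Neuron.

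**Figure D4:**
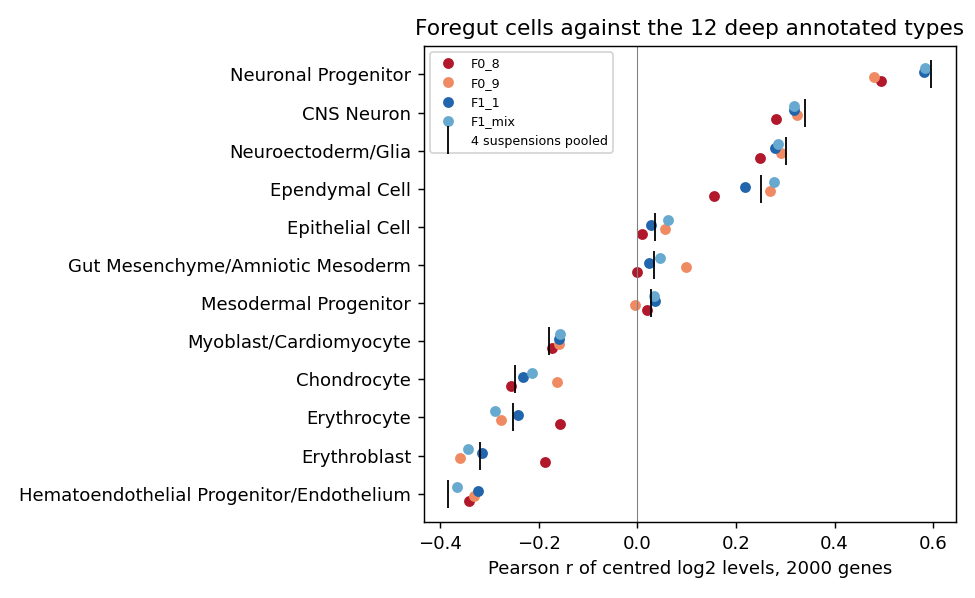
Pearson r between Foregut cells and each of the 12 deep annotations over the 2000 most variable genes, 1 point a suspension, with a bar for the 4 pooled. Neuronal Progenitor is farthest right in each suspension, between 0.48 and 0.58.

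Cell by cell, each Foregut cell was given the deep type whose profile, built from the other 3 suspensions, made its UMIs most likely under a multinomial model. Neuronal Progenitor was nearest for 184 of 225 cells, 81.8% (76.1 to 86.6), CNS Neuron for 22, Ependymal Cell for 14 and other types for 5. Of these 5, 2 were nearest to Erythroblast, both in F0_8. By suspension Neuronal Progenitor was nearest for 40 of 56 cells in F0_8, 23 of 35 in F0_9, 65 of 72 in F1_1 and 56 of 62 in F1_mix. Epithelial Cell was nearest for 0 of 225, which allows up to 1.63%. The other annotations of endoderm, Midgut, Hepatocyte and Endodermal Progenitor, were shallow and could not be chosen. The result therefore cannot tell whether a foregut profile would have been nearer. Deep cells thinned to the depths of Foregut cells kept their own type in 96.5% of cases for Neuronal Progenitor, 96.7% for Epithelial Cell, 82.8% for CNS Neuron and 85.3% for Ependymal Cell. Thinning matched the number of UMIs and not the composition by gene length, so these shares hold for depth only. Of the thinned Ependymal cells 7.35% went to Neuronal Progenitor, as did 3.03% of the CNS Neuron cells. For the other shallow types Neuronal Progenitor was nearest for 0 of 543 Hepatocyte, 1 of 333 Midgut and 43 of 268 Endodermal Progenitor cells.

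A further comparison set Foregut cells against Midgut cells, both shallow, and Neuronal Progenitor cells against Neuroectoderm/Glia cells, both deep. Composition by gene length differed the same way in both contrasts. Genes over 100 kb held 39.4% of UMIs in Foregut against 48.5% in Midgut, and 13.6% in Neuronal Progenitor against 23.1% in Neuroectoderm/Glia. Ribosomal protein genes held 4.08% against 2.56%, and 16.1% against 8.27%. Their part in the relation was not tested beyond leaving out genes over 100 kb. Over 4613 genes the 2 log2 ratios had r = 0.85, and 0.82 over the 3141 genes of 100 kb or less. By suspension r lay between 0.75 and 0.79. With Epithelial Cell in place of Neuronal Progenitor r was 0.74, and with Ependymal Cell 0.77. The relation was thus not particular to Neuronal Progenitor, and these correlations are descriptions across genes. In the first contrast Rrm2, a subunit of ribonucleotide reductase, had log2 ratios of 4.76 and 5.87, Rfx4 3.58 and 6.62, and Nrxn3 -4.00 and -4.86.

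**Figure D5:**
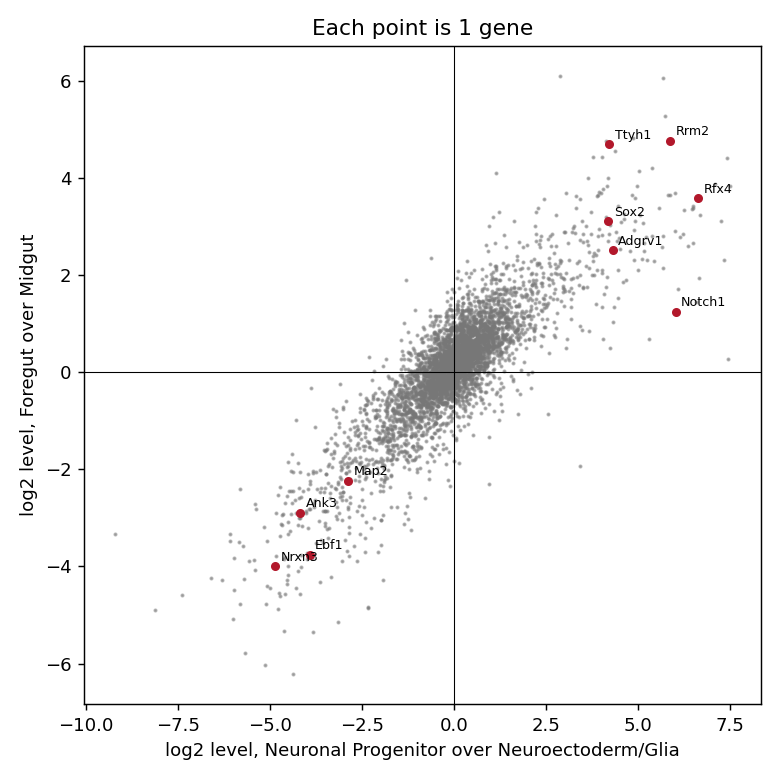
Log2 ratio of levels in Foregut over Midgut against that in Neuronal Progenitor over Neuroectoderm/Glia, 1 point a gene for 4613 genes, with some genes named. Rfx4, Ttyh1 and Rrm2 lie in the upper right and Nrxn3, Ebf1 and Ank3 in the lower left, and r over all points is 0.85.

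Most of the cells shared 1 cluster in the clustering that preceded the authors' noise reduction. There, 202 of the 225 (89.8%) fell into 1 cluster of 231 cells, whose other members were annotated Midgut (16), Endodermal Progenitor (12) and Hepatocyte (1). The rest were spread over other clusters. Of these, 9 lay in a cluster of 227 cells and had a median of 666 UMIs and 40.7% mitochondrial UMIs. A further 7 lay in a cluster of 606 cells and had a median of 3969 UMIs and 7.87% mitochondrial UMIs. Within the Foregut cells the neural progenitor list had overlapping intervals across mitochondrial shares. It stood at 12.8 (11.1 to 14.7) in the 75 cells with the lowest share, 12.7 (10.3 to 15.5) in the next 75 and 11.4 (8.54 to 14.99) in the 75 with the highest.

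EGFP, which the authors removed before clustering, was lower in Foregut cells than in most deep types. Over all gene UMIs it stood at 4.15, 4.84, 9.88 and 6.05 UMIs per 10000 in F0_8, F0_9, F1_1 and F1_mix, against 11.1, 10.8, 21.8 and 11.8 in Neuronal Progenitor. The mean log2 ratio was -1.17 ± 0.19 (SD, n = 4 suspensions), lower in 4 of 4, with an exact two-sided sign-flip p = 0.125, the smallest that 4 suspensions allow, and a Benjamini-Hochberg value of 0.156 over 15 types. Outside mitochondrial genes, the denominator of the other levels here, the ratio was -0.87 ± 0.19. Beside it, genes of 10 kb or less had a median log2 ratio of -1.17 between the same types of cells, and the part of transcript length in the EGFP ratio was not tested. Over all gene UMIs and across the 15 other annotations EGFP in Foregut cells was lower in 4 of 4 suspensions than in 10, higher in 4 of 4 than in Erythroblast and Erythrocyte, and of mixed direction against the other shallow types (mean log2 ratio 0.01 ± 0.17 to Hepatocyte, 0.29 ± 0.25 to Midgut, -0.05 ± 0.23 to Endodermal Progenitor). The denominator mattered for 2 types. Outside mitochondrial genes EGFP was lower than in Endodermal Progenitor cells, whose median mitochondrial share was 55.9%, in 4 of 4 suspensions (-0.78 ± 0.14) and lower than in Epithelial Cell in 3 of 4 (-0.65 ± 0.49), with exact sign-flip p = 0.125 and 0.25. The founders' mean log2 EGFP level was 0.79 below that of the F1 suspensions, with an exact permutation p = 0.333, the smallest 2 against 2 allows.

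Founders and F1 suspensions were compared over the summed counts of Foregut cells with edgeR's quasi-likelihood test. Of 2086 genes tested, 35 passed an adjusted p of 0.05 (1.68% of genes tested), 29 higher (1.39%) and 6 lower (0.288%) in founders. Most of these calls were lost when a single cell was left out. The deepest Foregut cell, in F0_8, had 13556 gene UMIs with 3.63% from mitochondrial genes, and it held 19.4% of the UMIs of its suspension outside mitochondrial genes. Without that cell, a choice made after seeing the data, edgeR tested 1938 genes and called 3, all among the 35. Calls were also lost for genes of which that cell held few or no UMIs. In F0_8, Fscn1 had 4 UMIs with and without it, and Nes had 9 and 8.

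These 3 were higher in founders. Hbb-bs, an adult beta globin, had 37 and 6 UMIs in F0_8 and F0_9 and 8 and 2 in F1_1 and F1_mix, a log2 fold change of 2.82 ± 0.51 (SE; adjusted p = 0.000128, and 0.0114 without the deepest cell). Most of its UMIs were in F0_8, and without F0_8 the change was 1.49 (adjusted p = 0.886). Nlgn1, the postsynaptic adhesion molecule neuroligin 1, had 101, 50, 44 and 44 UMIs (1.55 ± 0.29; adjusted p = 0.000252 and 0.0189). Trpm3, a cation channel, had 48, 16, 5 and 17 UMIs (2.27 ± 0.40; adjusted p = 9.01e-05 and 0.0461), and it lost its call without F0_8 (1.73; adjusted p = 0.208) and without F1_1 (1.44; adjusted p = 0.629).

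The other genes described here were called with the deepest cell and not without it. Ank3, which encodes ankyrin-G of axon initial segments, had 65, 40, 29 and 18 UMIs (1.97 ± 0.33; adjusted p = 8.57e-05), of which 39 lay in that cell, and its change was 1.504 without it (adjusted p = 0.0839). It kept its call whichever suspension was left out (edgeR adjusted p at most 0.0371). Rorb, an orphan nuclear receptor, had 24, 61, 20 and 13 UMIs (2.32 ± 0.40, edgeR adjusted p = 9.01e-05). Its change was 2.12 without the deepest cell, close to this (edgeR adjusted p = 0.0963), and 0.97 without F0_9. Smoc1, a secreted matricellular protein, had 43, 17, 17 and 7 UMIs (2.10 ± 0.37; adjusted p = 0.000111), and without the deepest cell its F0_8 count was 14 and its change 1.36 (adjusted p = 0.254). Sfrp2, a Wnt inhibitor, had 11, 15, 3 and 1 (3.48 ± 0.80; adjusted p = 0.0073), and without the deepest cell it was too low to be tested.

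Lower in founders were Fscn1, the actin bundler fascin (4, 2, 38 and 16 UMIs; -2.31 ± 0.55; adjusted p = 0.0108), the retinoic acid receptor Rarb (3, 8, 33 and 32; -1.72 ± 0.46; adjusted p = 0.0321) and Nes (9, 6, 41 and 36; -1.55 ± 0.40; adjusted p = 0.0236). Without the deepest cell their changes were -2.15, -1.57 and -1.48, close to these, with edgeR adjusted p = 0.0963, 0.185 and 0.0963. Leaving out F0_8 kept the size of the Fscn1 change (-2.48; adjusted p = 0.216) and cut that of Rarb (-0.80; adjusted p = 0.851). Nes was 1 of 4 neural progenitor genes tested, and the median log2 fold change of those 4 was -0.33, against 0.01 for all genes tested.

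Of 78 ribosomal protein genes tested, a list added after seeing these calls, 15 were higher and 0 lower in founders. Over all genes tested these shares were 1.39% and 0.288%. The median log2 fold change of the list was 0.76, against 0.01 for all genes. Without the deepest cell edgeR called 0 of 78, with 23 at an unadjusted p under 0.05 and a median of 0.40, against 0.0032 for all genes. Over all genes, 10.9% were under that p with the deepest cell, and the share without it was not computed. The pooled ribosomal share of UMIs was 5.97% and 4.52% in the founders and 3.18% and 3.38% in the F1 suspensions. In the deepest cell it was 13.2%, and without it 4.22% in F0_8. The median share per cell did not separate the groups, at 3.68% and 3.34% in the founders and 3.16% and 3.55% in the F1 suspensions. Both founders had a higher median mitochondrial share than both F1 suspensions, and its part in these differences was not tested.

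The calls also rested on the method. DESeq2 called 2 genes on the same table, both among the 35 and Ank3 among them. Hbb-bs and Trpm3 were not called by it (DESeq2 adjusted p = 0.342 for each). Its changes for genes it did not call were of similar size, such as 2.44 for Rorb and 3.66 for Sfrp2. Leaving out a suspension left 11 calls without F0_8, 64 without F0_9, 7 without F1_1 and 15 without F1_mix, where the lone sample of a group is assumed to vary like the others.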

How the data were processed

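Single-cell 3′ RNA-seq of 4 tagged mouse embryo suspensions, pooled in 1 library, was aligned by the authors to GRCm38 (mm10) with the EGFP sequence using Cell Ranger. The deposited matrices hold raw UMI counts of 21937 genes and 12 oligonucleotides; 6006 barcodes were deposited and 5678 annotated. Per the study's methods, the authors then used Seurat with removal of ambient RNA, EGFP and doublets (DoubletFinder) and noise reduction (RECODE) before clustering. None of that was applied to the counts used here. The deposited cell table gave annotation, cluster, mitochondrial percent and the doublet score, a fraction; 14 of its columns were not used. No doublet caller was run here.

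Barcodes were joined by suspension, and the foregut markers, gene lists and tests were chosen with earlier results of these data known. Levels are UMIs per 10000 outside genes beginning mt-. Named genes were list members, the 15 with most UMIs, the 15 highest and 10 lowest ratios among genes of at least 30 UMIs moving the same way in 4 of 4 suspensions, and up to 10 called genes with the largest founder change; Nes was added after its values were seen. Gene lengths came from RefSeq (GRCm38.p6), matched for 21320 genes. Some list members are not reported here and were left out of their lists. The nuclear long noncoding RNA list had 0 of 4 genes among those deposited. Founder and F1 counts were tested with edgeR 4.0.16 (filterByExpr, TMM, Benjamini-Hochberg), with DESeq2 1.42.0 as alternative; the edgeR script was tested on simulated data. Python 3.11.15, scipy 1.17.1 and R 4.3.3 were used. Summed counts per suspension ran from 47502 to 120492.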

Additional observations from a re-analysis of the deposited data

Results flagged for a closer look

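Of 27 measures of Foregut cells compared over the 4 suspensions, 1 had a suspension standing farther from the others than Dixon's 95% limit for 4 values, which chance passes in about 1 in 20 groups. The erythroid list stood at 21.3 UMIs per 10000 in F0_8, against 5.60, 4.47 and 5.87 in F0_9, F1_1 and F1_mix. Most of the F0_8 UMIs came from Hba-a1 (39), Hbb-bs (37) and Hba-a2 (21), adult globins.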

How the results depend on the processing

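The share of cells annotated Foregut, 3.96% of all, was 0.117% among cells with under 5% mitochondrial UMIs and 3.03% among cells of at least 1000 gene UMIs. The foregut set level of 0.82 was 0.0715 when the gut endoderm list took its place, and lay between 0.607 and 1.08 when 1 suspension was left out. The correlation with Neuronal Progenitor, 0.60 pooled, was 0.74 when Foregut was centred on the 4 shallow types and 0.35 with a pseudocount of 1, both tried after seeing the data, and 0.56 to 0.60 without 1 suspension. The median mitochondrial share, 24.1%, was 19.1% in cells of at least 1000 gene UMIs, 19.6% when weighted by UMIs, and 22.5% to 24.9% without 1 suspension. The 35 founder calls became 3 without the deepest Foregut cell, left out after seeing the data, 2 with DESeq2 and 7 to 64 without 1 suspension; without a filter 24 were called, 15 of them shared, and without mt- genes 34, all 34 shared. The share of cells nearest to Neuronal Progenitor stayed within its interval, and both EGFP comparisons kept their direction, under the alternatives run, the EGFP ratio to Neuronal Progenitor being -1.24 to -1.08 without 1 suspension. The causes were not tested. For founders against F1, no paired analysis was possible because the suspensions carry no shared replicate numbers, while the EGFP ratios between cell types were paired by suspension. The foregut markers did not pass the expression filter. Without it edgeR tested 3 of the 4, with adjusted p = 0.972 for Nkx2-1, 0.947 for Shh and 0.204 for Sox21, on 14 UMIs of Sox21 or fewer a gene.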
